A study of Homo sapiens with 8 samples.

Results

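The ETS factors examined here were 10 transcription factors, namely ETS1, ETS2, ETV4, ETV5, ELF1, ELF3, ELK1, ELK3, ELK4 and EHF. Their genes were taken by symbol from the 19475 entries of the mRNA table, and their peaks by gene name from 4 lists of m6A peaks. All 10 were in the table, and 71 of the 70751 peaks carried one of their names. HCT116, a human colorectal carcinoma line, was treated with PBS (Control) or with Fusobacterium nucleatum (labelled FUSO) for 2 h. Fragments of poly(A) RNA were sequenced after selection by an antibody against m6A (IP) and without selection (input), with 2 libraries in each of the groups Control input, Control IP, FUSO input and FUSO IP. The methods call the 2 libraries of a treatment biological replicates, and the labels do not say how the cultures were separated, so the tests measure the spread between these libraries.

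ETS factors bind DNA through a winged helix domain, the ETS domain, which reads a GGA core in promoters and enhancers. Many of them take signals from the RAS and ERK kinase cascade: ERK phosphorylates ETS1 and ETS2 beside their Pointed domain, and the ELK factors, called ternary complex factors, in a domain at their C-terminal end. The PEA3 factors ETV4 and ETV5 are induced by the same cascade and activate protease genes, and ELF3 and EHF are among the ETS factors of epithelia. m6A is a methyl mark on adenosines of mRNA that METTL3 and its partners write, most often within the DRACH consensus (A, G or T, then A or G, then A and C, then A, C or T) and close to stop codons. The comparison asked whether these mRNAs, and the peaks on them, differed between Control and F. nucleatum-treated cells.

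The epithelial markers EPCAM, KRT8, KRT18 and KRT19 were at 161.8 FPKM or more in every library, whereas CDX1 and CEACAM5 were listed at 0 and VIL1 and LGR5 reached at most 0.0289 FPKM. FPKM are fragments scaled to transcript length and to all mapped fragments. Of the markers of leukocytes, fibroblasts and endothelium, CD68 (7.15 to 9.3 FPKM) and COL1A1 (3.78 to 5.72 FPKM) were the only ones above 1 FPKM, and PTPRC, CD3E, DCN and PECAM1 were at or near 0. Relative to Control 1, the input depth estimated from the lowest FPKM values was 1.11 in Control 2, 1.23 in FUSO 1 and 0.912 in FUSO 2. How many reads any library held was unknown.

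Peaks at the 3′ end of the coding sequence recurred in all 4 lists. In ETS1, ETS2, ELF3 and EHF they covered the coding sequence of the ETS domain signature, the stretch that holds the DNA-reading helix, in all 4 lists. The sequences below are shown because these peaks lie on the part that all 10 genes share. Each is the 39 nt coding sequence on the mRNA strand (build GRCh37), with capitals at the 18 of 39 positions that were identical in all 10 genes.
ETS1: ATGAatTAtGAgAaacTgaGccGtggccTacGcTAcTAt
ETS2: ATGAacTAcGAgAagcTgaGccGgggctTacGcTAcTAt
ELF3: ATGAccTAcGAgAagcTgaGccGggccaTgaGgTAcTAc
EHF: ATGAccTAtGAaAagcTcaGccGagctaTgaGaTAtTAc
ELK3: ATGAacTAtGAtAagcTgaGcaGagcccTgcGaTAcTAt
ETV4: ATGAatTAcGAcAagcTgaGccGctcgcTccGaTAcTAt

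The ETS1 sequence lies at chr11:128332394-128332432 on the minus strand and that of ETS2 at chr21:40194637-40194675 on the plus strand, each inside 1 coding exon and 138 nt before the end of the stop codon. Those of ELF3 (chr1:201983121-201984343, plus strand) and EHF (chr11:34680244-34680385, plus strand) are split by an intron. The ELK3 sequence lies at chr12:96617504-96617542 on the plus strand and the ETV4 sequence at chr17:41606527-41606565 on the minus strand. ETS2 shared 34 of the 39 bases with ETS1, or 87.2%, and EHF shared 25, or 64.1%. The distance to the stop codon differed among the genes: the signature ended 93 nt before the end of the stop codon in EHF and 108 nt in ELF3, but 249 nt in ETV4, 246 nt in ETV5 and over 1000 nt in ELF1, ELK1, ELK3 and ELK4.

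Peaks covered all 39 nt of the signature in every list for ETS2, ELF3 and EHF, and 39, 39, 39 and 37 nt in Control 1, Control 2, FUSO 1 and FUSO 2 for ETS1. In ELK3 the signature was covered in Control 2 and FUSO 2 and not in Control 1 or FUSO 1, so its coverage did not follow the treatment. In the other 5 genes, ETV4, ETV5, ELF1, ELK1 and ELK4, no list had a peak on it.

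The motif GGAC, a common form of the first bases of that consensus, was searched on the mRNA strand. It lay in 18 of the 23 regions of these genes (78.3%) and in 72.8% of the 22001 regions of all genes, where a region is a set of peaks of the 4 lists that share at least 1 bp of exon on the same strand. Taken over all bases, the ETS regions held 6.26 GGAC per kb and the regions of all genes 5.11. The following 30 nt windows show, for each gene with a GGAC that fits DRACH, within 100 nt of the stop codon and under a peak in every list that had the region, the one nearest the last base of the stop codon, with GGAC in capitals.
ETS1: tgagaccttccaaGGACagccgtgttggtt
ETS2: agcccgacacggaGGACtgaggtcgccggg
ELF3: ggaactatacccgGGACcaaactcacggac
EHF: ctgccaatactttGGACacaaaccaaaaca
ELK3: tggccacaattaaGGACtcattaactgatg

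The A of these motifs lies at chromosome 11 position 128332211 in ETS1 (45 nt after the last base of the stop codon), chromosome 21 position 40194809 in ETS2 (4 nt before it), chromosome 1 position 201984472 in ELF3 (21 nt after it), chromosome 11 position 34680496 in EHF (18 nt after it) and chromosome 12 position 96660981 in ELK3 (23 nt after it). A match gives a candidate adenosine only, since the lists hold peaks and no base-level calls. The ETS1, ETS2, ELF3 and EHF motifs lay under peaks of all 4 lists, and the ELK3 motif under peaks of both FUSO lists alone.

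ETS1, an ERK-responsive factor of cell migration and angiogenesis, had the widest gap between its FUSO libraries of these 10 mRNAs. Its level was 2.256 FPKM in Control 1, 3.844 in Control 2, 12.49 in FUSO 1 and 4.059 in FUSO 2. FUSO 1 stood apart, and FUSO 2 lay just above Control 2, so that both FUSO values were above both Control values while the means of 8.28 ± 5.96 and 3.05 ± 1.12 FPKM (SD, n = 2) were within that spread. The log2 fold change on log2(FPKM + 1), the scale of all fold changes given here, was 1.06 with an SE of 0.465 and a 95% confidence interval of -0.11 to 2.22. The adjusted p from limma was 0.397, and ETS1 was not called at the threshold of 0.05. In bulk RNA, more cells with a transcript and more transcript per cell cannot be told apart. Without FUSO 1 the log2 fold change was 0.35 and without FUSO 2 it was 1.76. The gap between the FUSO libraries was 3.08-fold in FPKM. On log2(FPKM + 1) it was 1.42, wider than in 99.8% of the 11088 genes tested.

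Each list had a long peak over the end of the ETS1 coding sequence and the start of its 3′UTR. It spanned 780 nt in Control 1, 870 nt in Control 2, 960 nt in FUSO 1 and 930 nt (as 2 peaks) in FUSO 2. Together they made the region chr11:128331442-128333482 on the minus strand, with 10 GGAC motifs, and the lowest p-values of the authors were 1e-14, 5e-25, 2e-38 and 2e-24 in that order. The highest mRNA level and the lowest p-value were thus in the same library, FUSO 1.

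ETS1 had another 2 regions, and both were in FUSO 1 only. One lay in the 3′UTR (chr11:128330423-128330573, 151 nt, p 0.0011), with its midpoint 1758 nt past the stop codon. The other (chr11:128392086-128392146, 61 nt, p 0.0041, GC content 77%) lay outside the canonical transcript, in the first exon of other annotated ETS1 transcripts. Their p-values were far weaker than those at the stop codon, and the part of the 3.08-fold higher mRNA level of that library in them was not tested.

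ETS2, the close relative of ETS1, had 13.41 and 13.32 FPKM in the Control and 11.71 and 11.74 FPKM in the FUSO libraries. Replicates were almost equal, and both FUSO values were lower, by 0.18 on the log2 scale (log2 fold change -0.18, SE 0.066, limma adjusted p 0.355), which was not called. The first of its 2 regions ran from the coding sequence across the stop codon (chr21:40191634-40195290, plus strand) with 839, 839, 809 and 809 nt in Control 1, Control 2, FUSO 1 and FUSO 2 and p-values between 1e-131 and 2e-83. The other lay in the 3′UTR (chr21:40196009-40196698) with 630, 600, 660 and 660 nt. The sum of the ETS2 peak bases was 1469 nt in 3 of the lists and 1439 nt in Control 2, so the lists were alike in extent.

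ELF3 was the 1 of 10 ETS mRNAs that was called higher. ELF3, which keeps differentiation programmes of epithelial cells, stood at 16.08 and 16.14 FPKM in the Control and at 23.93 and 24.77 FPKM in the FUSO libraries. Both groups were tight and well apart, with means of 16.1 ± 0.0483 and 24.4 ± 0.594 FPKM (SD, n = 2), a ratio of 1.51. The log2 fold change was 0.57 with an SE of 0.063 and a 95% confidence interval of 0.41 to 0.72, at an adjusted p of 0.0265 from limma. Over all genes tested, 0.667% were called higher and 0.135% lower, and of the ETS genes 1 was called higher and 0 lower (ETS2, ELF1 and ELF3, 3 of 10, were under 0.05 before adjustment, as were 13.5% of all genes tested). The size of the ELF3 change was similar without any one library, from 0.54 to 0.59, but the call was lost without FUSO 1 (adjusted p 0.246) or FUSO 2 (0.282), with no filter on low values (0.0634) and without the trend in limma (0.0541), and also with a replicate block together with GC correction (0.0923).

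A single region marked ELF3 in all 4 lists, at chr1:201982987-201985600 on the plus strand, from the coding sequence over the stop codon into the 3′UTR. Its peaks held 1252 nt in Control 1, 1281 nt in Control 2, 1400 nt in FUSO 1 and 1311 nt in FUSO 2, with p-values of 1e-131, 1e-140, 1e-226 and 1e-159. It was the longest region of the ETS genes, at 1430 nt, and had the most GGAC motifs, 14. Both FUSO lists had more peak bases and lower p-values than both Control lists, as the mRNA level was also higher there. The part of the mRNA level in these p-values was not tested. ELF3 shares 449 nt of exon with a lncRNA on the same strand, whose reads the table cannot keep apart from those of ELF3.

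EHF, like ELF3 an epithelial ETS factor, had 12.89 and 12.51 FPKM in the Control and 14.85 and 12.64 FPKM in the FUSO libraries. FUSO 2 lay between the Control values, and the change of 0.10 on the log2 scale (SE 0.093, limma adjusted p 0.652) was not called and was -0.0062 without FUSO 1. Its stop codon region (chr11:34678461-34680695) held 480, 570, 510 and 510 nt, and a region far into its 3′UTR (chr11:34683484-34683994, midpoint 3261 nt past the stop codon) held 421, 481, 451 and 511 nt in Control 1, Control 2, FUSO 1 and FUSO 2. These were among the strongest peaks of the ETS genes, with p-values between 1e-111 and 6.3e-56. Another EHF region, of 61 nt and p 0.00011, was in FUSO 2 only.

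ELF1, a factor best known from lymphoid cells, had 2.838 FPKM in Control 1, 4.779 in Control 2, 11.01 in FUSO 1 and 5.854 in FUSO 2. As for ETS1, FUSO 1 was the highest and Control 1 the lowest library. The log2 fold change of 0.95 (SE 0.310, 95% confidence interval 0.17 to 1.72, unadjusted limma p 0.025) had an adjusted p of 0.312 and was not called, and without FUSO 1 it was 0.54. Its main region held 2 exon blocks at the end of the coding sequence (chr13:41507401-41515339, minus strand), with 898, 958, 1017 and 1017 nt in Control 1, Control 2, FUSO 1 and FUSO 2. A region of 180 nt in the 5′UTR (chr13:41556264-41593388, p 1.5e-05) was called in Control 2 only, and it was the only 5′UTR region of the ETS genes by its midpoint.

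**Figure D1:**
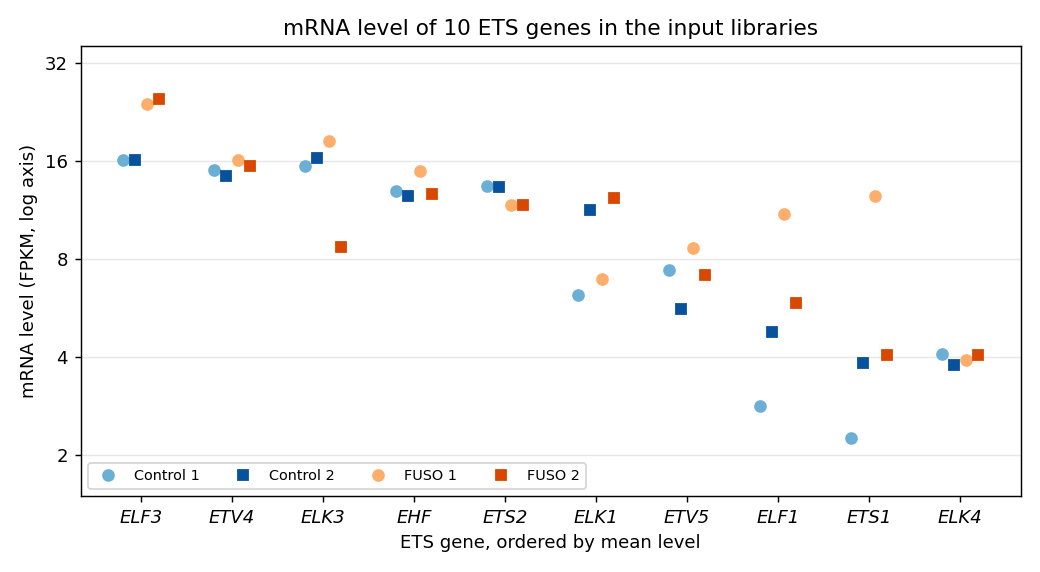
mRNA level (FPKM, log axis) of the 10 ETS genes in the 4 input libraries, ordered by mean level, with 1 point per library. The ELF3 values of both FUSO libraries lie apart from both Control values, whereas ETS1 and ELF1 are spread by FUSO 1 and Control 1, ELK3 by FUSO 2, and ELK1 by replicate number.

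Among the PEA3 factors, ETV4 had 15.01 and 14.34 FPKM in the Control and 16.14 and 15.41 FPKM in the FUSO libraries. Both FUSO values were above both Control values, but by only 0.10 on the log2 scale (SE 0.069, limma adjusted p 0.557). ETV5 had 7.383 and 5.643 FPKM in the Control and 8.667 and 7.133 FPKM in the FUSO libraries, and the groups overlapped (log2 fold change 0.25, SE 0.145, adjusted p 0.49, from 0.081 without Control 2 to 0.42 without Control 1).

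The ETV4 and ETV5 peaks were short and moved between lists. The ETV4 coding region (chr17:41610071-41611243, minus strand) had 327 nt in Control 1, 119 nt in Control 2, 120 nt in FUSO 1 and 209 nt in FUSO 2, and only 1 nt was under a peak in all 4 lists. Its 3′UTR region (chr17:41605241-41605567) was called in all lists but FUSO 1, with p-values of 5.1e-10, 0.001 and 3.2e-14. ETV5 had a 3′UTR region (chr3:185766082-185766351, minus strand) in all lists but Control 2, with p-values between 0.00051 and 8.3e-06. A second 3′UTR region of ETV5 (chr3:185764375-185764615) joined a peak of 91 nt in Control 2 and one of 151 nt in FUSO 2 that shared only 1 nt. A coding region of 60 nt was in FUSO 1 only (p 0.0042). ETV4 overlaps DHX8 on the opposite strand by 54 nt and ETV5 overlaps DGKG on the same strand by 164 nt of exon.

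The ternary complex factors bind promoters of immediate early genes together with the serum response factor SRF. ELK1 had 6.225 FPKM in Control 1, 11.3 in Control 2, 6.946 in FUSO 1 and 12.27 in FUSO 2. The values split by replicate number and not by treatment, with a change of 0.12 on the log2 scale (SE 0.328, limma adjusted p 0.893) that was -0.26 without Control 1 and -0.25 without FUSO 2. ELK4 was level, with 4.103, 3.779, 3.93 and 4.057 FPKM in Control 1, Control 2, FUSO 1 and FUSO 2 (log2 fold change 0.02, 95% confidence interval -0.20 to 0.23, adjusted p 0.956). ELK3, a ternary complex factor that represses until ERK phosphorylates it, had 15.43, 16.34, 18.39 and 8.69 FPKM in the same order. Its FUSO libraries were the highest and the lowest of the 4, and its log2 fold change of -0.30 (SE 0.308, adjusted p 0.685) was 0.20 without FUSO 2.

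ELK3 held both regions of the ETS genes that separated the treatments. A region called in both FUSO lists and in no Control list is named gained here, and the reverse lost. Of all 22001 regions 2.38% were gained and 2.64% were lost, and of the 23 ETS regions 2 were gained and 0 lost, with no test across regions. The gained regions lay at the stop codon of ELK3 (chr12:96660869-96661078, plus strand) and in its 3′UTR (chr12:96662062-96662241). The first was under peaks of 150 nt in FUSO 1 (p 8.5e-06) and 180 nt in FUSO 2 (p 8.3e-09), and held 3 GGAC motifs. The second was under peaks of 120 nt in both lists (p 5.9e-05 and 8.1e-05), of which 60 nt were shared, and held no GGAC. The gain at the stop codon was called in FUSO 2, where ELK3 mRNA was lowest (8.69 FPKM). It was also called in FUSO 1, where the mRNA was highest (18.39 FPKM). The part of the mRNA level in these calls was not tested. With peaks kept only at p of at most 1e-05, 1 gained region was left.

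The main ELK3 region spanned the coding sequence (chr12:96617437-96653522) in all 4 lists, with 746 nt in Control 1, 926 nt in Control 2, 807 nt in FUSO 1 and 1015 nt in FUSO 2 and p-values of 1e-21, 5e-36, 6.3e-45 and 1.3e-34. Its extent overlapped between the groups. Absence of a peak in the Control lists means that none was called there, since the lists hold no value for bases without a call. ELK3 also overlaps a lncRNA on the opposite strand by 209 nt of exon.

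ELK1 had its main region at the stop codon (chrX:47495961-47497307, minus strand), with 626, 358, 328 and 299 nt in Control 1, Control 2, FUSO 1 and FUSO 2, and a coding region of 180 nt in FUSO 1 only (p 0.00032). In FUSO 2 the main region was split into a coding peak of 90 nt and a 3′UTR peak of 209 nt, and neither covered the stop codon. ELK4 had a coding region in all lists (chr1:205589024-205589953, minus strand) with 900, 901, 841 and 841 nt, and a region of lower significance downstream (chr1:205585318-205588514) that lay partly outside the canonical transcript. This downstream region crossed the stop codon in all 4 lists. The FUSO lists had fewer bases in the ELK4 coding region and in the main ELK1 region, but each of these regions was called in all 4 lists.

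**Figure D2:**
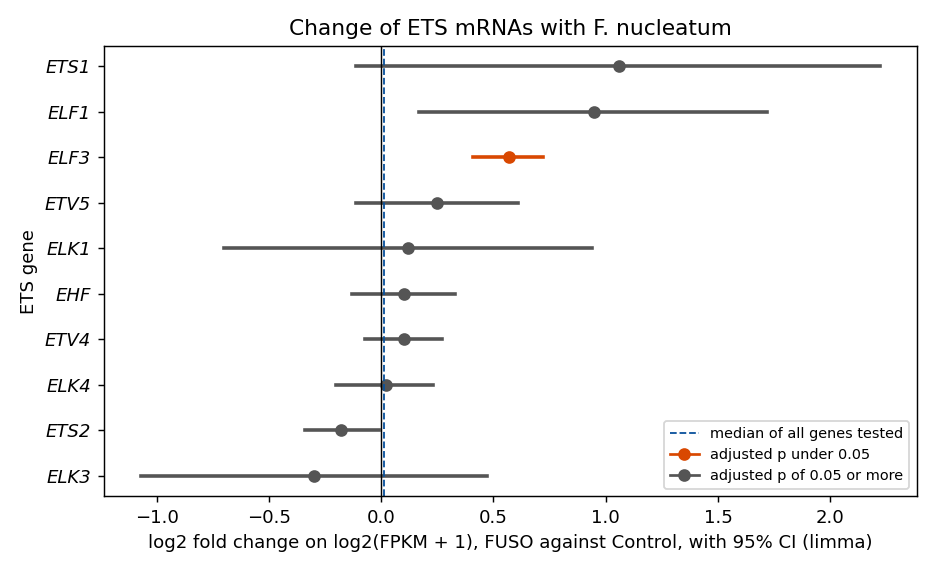
log2 fold change of the 10 ETS mRNAs on log2(FPKM + 1), FUSO against Control, with the 95% confidence interval from limma and n = 2 libraries per group. Only the ELF3 point is in the colour of an adjusted p under 0.05, and the ETS1, ELF1, ELK1 and ELK3 intervals are the widest.

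Over the 10 mRNAs the log2 fold changes ranged from -0.30 to 1.06, with a median of 0.11 beside 0.01 over all genes tested. Both FUSO values were above both Control values in 4 genes, ETS1, ETV4, ELF1 and ELF3, and below them in 1, ETS2. Over all genes tested these shares were 26.1% and 21.1%, so 4 and 1 of 10 are not far from the background. The order of mean levels ran from ELF3 (20.2 FPKM) over ETV4, ELK3, EHF, ETS2, ELK1, ETV5, ELF1 and ETS1 to ELK4 (3.97 FPKM), and no neighbours in this order had ranges over the 4 libraries that were apart.

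All 10 genes had a peak in all 4 lists, which held for 68.7% of the 11088 genes that averaged 1 FPKM or more. By list the ETS genes had 15 peaks in Control 1, 15 in Control 2, 20 in FUSO 1 and 21 in FUSO 2. Both FUSO lists had more, by 5.5 peaks on average (two-sided exact permutation test, p 0.333, the smallest that 2 lists against 2 allow), while the counts over all genes, 17198, 18149, 18365 and 17039, overlapped. With peaks at p of at most 1e-05 alone the difference was 2.5 peaks. A region split within a list counts as 2 peaks. This held in FUSO 2 for the main ETS1 and ELK1 regions and for the ETV4 coding region. The downstream ELK4 region was split in Control 1 and in FUSO 1. Peak bases summed to 8679 and 8803 nt in the Control and 9377 and 9613 nt in the FUSO lists, 754 nt more on average (exact permutation p 0.333). Over all genes the sums were 7152 and 8090 kb in the Control and 7919 and 7108 kb in the FUSO lists, which overlapped (exact permutation p 0.667).

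ETS1, ETV5, ELF3 and ELK3 had more peak bases in both FUSO lists than in both Control lists, and 0 of the 10 genes had fewer. Among the 11155 genes with a peak in any list, 14.3% had more and 17.8% had fewer. Genes with a peak in a single list can be in neither share, whereas all 10 ETS genes had a peak in all 4 lists. The 2 sets are thus not alike. The largest difference was that of ELK3, with 746 and 926 nt in the Control and 1077 and 1315 nt in the FUSO lists. ETS1 followed with 780 and 870 nt against 1172 and 930 nt, and then ETV5 with 150 and 91 nt against 210 and 421 nt.

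**Figure D3:**
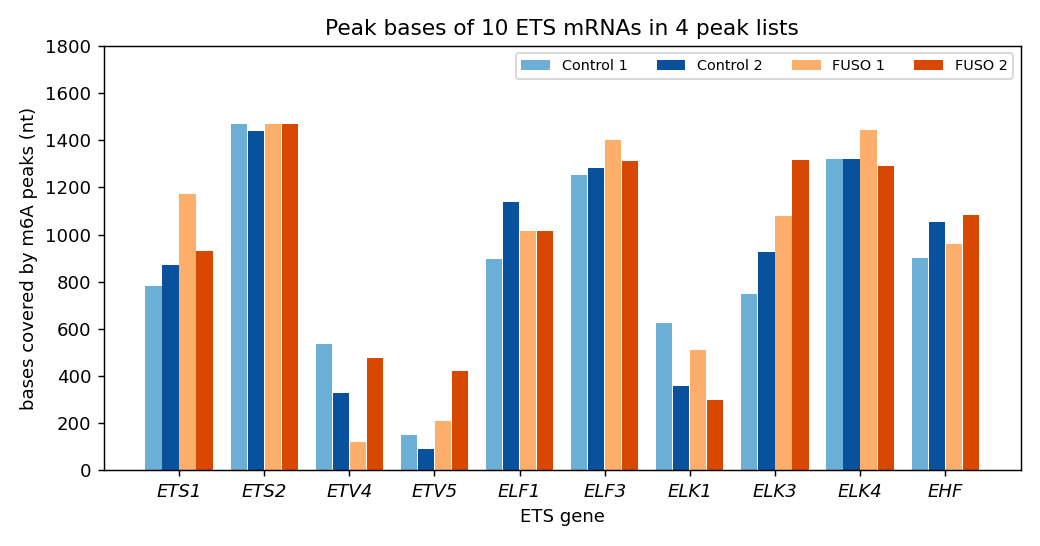
Bases (nt) covered by m6A peaks of each ETS gene in the 4 lists, 1 bar per list. The orange FUSO bars of ETS1, ETV5, ELF3 and ELK3 exceed both blue Control bars, and the bars of the other 6 genes overlap or are equal.

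Of the 23 regions 12 were called in all 4 lists (52.2%, beside 51.5% of all regions), 2 were gained, 2 were in 3 lists, 1 in 2 lists and 6 in 1 list. The 6 regions in 1 list were 60 to 180 nt long with p-values from 1.5e-05 to 0.0042, and 4 of them were in FUSO 1, the list of the deepest input. By the midpoint, 1 of the 21 regions on a canonical transcript lay in the 5′UTR, 6 in the coding sequence, 4 within 100 nt of the stop codon and 10 in the 3′UTR. The share in the 3′UTR was 47.6%, beside 34% of the regions of all genes, and that at the stop codon 19%, beside 15.9%.

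Next, genes around the ETS factors were counted. Of 18 other ETS family genes 7 passed the filter of 1 FPKM, and 0 were called, the largest log2 fold change being the 0.41 of ELF2 (limma adjusted p 0.529). ERF, a repressor and the most abundant of them, had 9.17 and 7.52 FPKM in the Control and 9.54 and 9.45 FPKM in the FUSO libraries. ERG, FLI1 and SPI1, ETS factors of blood and endothelium, were at or near 0. Of 15 genes of the ERK cascade, from EGFR to RPS6KA3, 0 were called, and MAP2K2, the most abundant, had 57.7, 48.9, 50.9 and 53.2 FPKM in Control 1, Control 2, FUSO 1 and FUSO 2. Of 9 genes that repress PEA3 factors or turn them over, and of 7 tested partners of ETS1, 0 were called. Their most abundant members, TRIB1 (144.1, 134.7, 168.2 and 168.7 FPKM) and CBFB (29.5, 24.2, 26.1 and 26 FPKM), had adjusted p of 0.177 and 0.902. Over all genes tested, 0.667% were called higher and 0.135% lower, so 0 calls in lists of this size are not far from that share.

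Among targets, 6 of the 9 tested genes on the list of SRF and ternary complex targets were called higher and 0 lower. The median log2 fold change over the list was 0.74. SRF itself, the partner of the ELK factors, had 8.76 and 11.1 FPKM in the Control and 22.5 and 23.1 FPKM in the FUSO libraries. The immediate early gene EGR1, a zinc finger factor, had 27.3 and 31.1 FPKM against 50.7 and 47.9 FPKM (log2 fold change 0.74, limma adjusted p 0.0265). IER3 had 114.8 and 113.2 FPKM against 194 and 202.2 FPKM (0.79, adjusted p 0.00601), and JUNB, an AP-1 subunit, had 61.8 and 64.4 FPKM against 101.5 and 99.6 FPKM (0.66, adjusted p 0.0114). NR4A1 and IER2 rose by 0.78 and 0.43 on the log2 scale (adjusted p 0.0339 and 0.0342). FOS, the classic target of this complex, had 83.8 and 99.8 FPKM against 101.8 and 82.3 FPKM, a log2 fold change of 0.00 (adjusted p 0.997). Both FUSO values were above both Control values in the other 8 of the 9 genes tested, and below them in 0. Over all genes tested these shares were 26.1% and 21.1%, and 0.667% were called higher. The lists of targets were chosen with earlier results of these data known, so these counts are a description only. With no filter on low values the calls of SRF, EGR1, NR4A1 and IER2 were lost (adjusted p 0.0741, 0.0814, 0.103 and 0.0634). Without the trend those of EGR1, NR4A1 and IER2 were lost (0.0588, 0.0575 and 0.114). The replicate block ended the IER2 call (0.06), and together with GC correction it also ended those of SRF, EGR1, NR4A1 and JUNB (0.0625, 0.114, 0.0687 and 0.0655).

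Of 6 tested ETS1 and PEA3 target genes, 2 were called higher and 0 lower, and the median log2 fold change was 0.13. Over all genes tested, 0.667% were called higher and 0.135% lower. The 2 called genes were PLAU, the urokinase protease, and its receptor PLAUR. PLAU had 27.8 and 25.4 FPKM in the Control and 80.7 and 85.9 FPKM in the FUSO libraries (log2 fold change 1.61, SE 0.072, limma adjusted p 0.00145). PLAUR had 41.1 and 42.9 FPKM against 76.9 and 80.1 FPKM (0.89, adjusted p 0.00601). The matrix metalloproteases of the same list did not join them: MMP1, MMP3, MMP9 and MMP13 were below 1 FPKM, and MMP14 had an adjusted p of 0.629. MMP7 was lower in both FUSO libraries (1.69 and 1.02 FPKM against 0.738 and 0.781 FPKM, -0.41, adjusted p 0.36). Both FUSO values were above both Control values in 3 of the 6 tested genes and below them in 1 (26.1% and 21.1% over all genes tested). Of 9 tested ERK output genes 1 was called higher, the receptor kinase EPHA2 (76.4 and 75.5 FPKM against 100.5 and 104 FPKM, 0.42, adjusted p 0.0405), and 0 were called lower. Both FUSO values were above both Control values in 5 of the 9 genes (26.1% over all genes tested). They were below them in 1 (21.1% over all genes tested), DUSP4, with 26.1 and 27.3 FPKM against 9.36 and 20.7 FPKM (-0.88, limma adjusted p 0.348). The EPHA2 call was lost with no filter (0.0744), without the trend (0.131), with median ratio scaling (0.055), and with the replicate block without (0.0699) or with GC correction (0.11). These genes have many other regulators, and their dependence on an ETS factor was not measured. With either FUSO library left out, only 1 of the genes on the lists was called in place of 9.

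**Figure D4:**
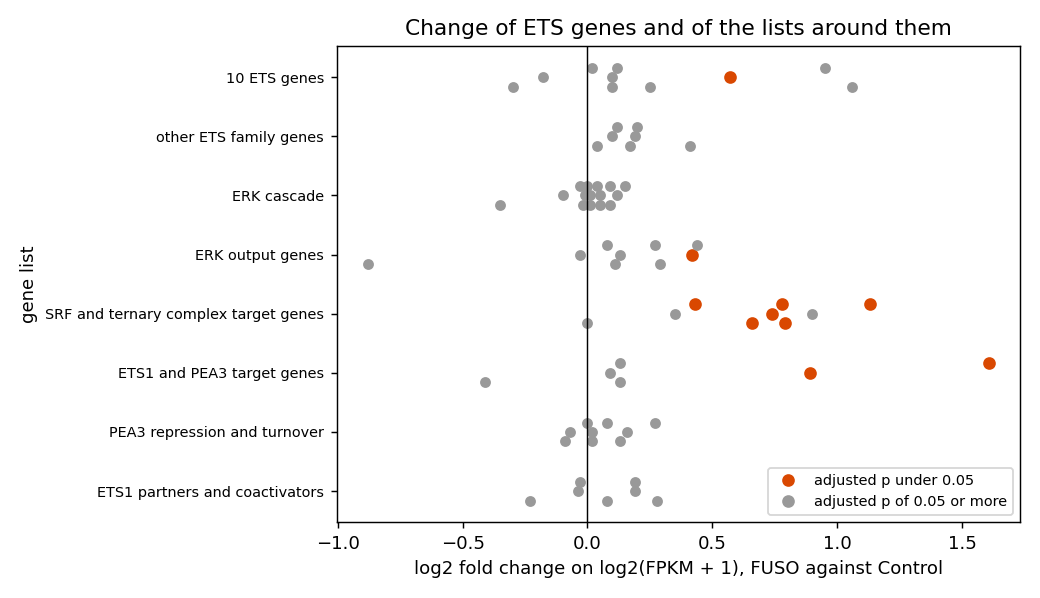
log2 fold change (FUSO against Control, on log2(FPKM + 1)) of each tested gene in the 10 ETS genes and in 7 lists around them, 1 point per gene. The called genes, in orange, are ELF3 among the ETS genes, EPHA2 among ERK outputs, 6 SRF and ternary complex targets and 2 ETS1 and PEA3 targets. The remaining lists have none.

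Finally, the tested genes outside the family with profiles most like those of ETS1 and ELF3 were found by the Euclidean distance between log2(FPKM + 1) values centred on their mean over the 4 input libraries. For ETS1 they were CANT1 (0.282), AMOTL2 (0.284), TXNDC5 (0.32), GDA (0.326) and KLF10 (0.436). Each had its highest level in FUSO 1, as with CANT1 at 5.51, 7.88, 20.7 and 6.97 FPKM in Control 1, Control 2, FUSO 1 and FUSO 2, and none of the 5 was called. For ELF3 they were TICAM1 (0.0357), ANAPC10 (0.0384), ZDHHC3 (0.0463), PLK3 (0.0469) and HLCS (0.0637). TICAM1 had 21.3 and 22 FPKM in the Control and 31.8 and 32.5 FPKM in the FUSO libraries. With 4 libraries such distances describe the values and no more.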

How the data were processed

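The study mapped m6A in HCT116 cells with 2 Control and 2 FUSO libraries of IP and of input RNA. The submitters' processing notes name Trim Galore 0.3.3, HISAT2 2.1.0, StringTie and hg19. The deposited mRNA values are FPKM that the authors computed from the input libraries. The deposited peak lists, 1 per replicate, give exon blocks, a gene name and a score of 0 to 0.012, read here as the authors' p-value. The methods name MACS2, but exon blocks are a format of exomePeak, and which was used was not settled. No count test could be run on FPKM, so limma 3.58.1 in R 4.3.3 (lmFit, eBayes with trend) was used on log2(FPKM + 1). It took in the 11088 genes that averaged 1 FPKM or more, with calls at a Benjamini-Hochberg adjusted p under 0.05. The pseudocount understates changes of low genes.

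Peaks were merged over all genes when exon blocks shared at least 1 bp, and placed on canonical transcripts of GENCODE release 44 on GRCh37 when at least 90% of their bases lay there. Coordinates are 1-based. Sequences were read from the GRCh37 genome, and the ETS signature was located by a pattern in the translated coding sequence. Other steps used Python 3.11.15, NumPy 2.4.6 and pysam 0.24.0. Alternatives were another pseudocount, filters, scalings, a GC correction, a replicate block, stricter peaks, another overlap, and leaving out each library. Replicate numbers are shared by the groups, but the labels do not tie them to a batch.

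The 10 genes and the lists around them were chosen with earlier results of these data known. Named are the 10 genes, every called gene of a list or else its most abundant gene, and the 5 nearest profiles of ETS1 and of the called ETS gene. An item on the lists is not reported here and is left out of their counts. Genes at 0 and a few others were named after their values were seen.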

Additional observations from a re-analysis of the deposited data

How the results depend on the processing

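With no filter on low values 40 genes were called in place of 89, of which 37 were among the 89, and 0 ETS genes and 4 genes of the lists in place of 9. Without the trend 0 ETS genes and 5 list genes were called. The replicate block left 90 calls, with ELF3 among them (adjusted p 0.0377) and 7 list genes, and the replicate block with GC correction left 34, with 0 ETS genes and 3 list genes. Differences between replicates correlated by 0.0243 across the treatments, so the numbers share a name only. Leaving out 1 library gave 16 (without FUSO 2) to 284 (without Control 2) called genes, 0 to 1 ETS genes, 1 to 13 list genes, 0 to 1 lost and 2 to 6 gained ETS regions. Fewer lists have to agree there, and without FUSO 2 every FUSO 1 region absent from Control counts as gained. Peaks at p of at most 1e-05 left 14 ETS regions with 1 gained. When merging required an overlap of at least 50% of each peak, there were 31 ETS regions in place of 23. Of these, 10 were in every list in place of 12, and 2 were gained. By the start of a peak 11 regions lay in the coding sequence and 2 at the stop codon, in place of 6 and 4. A log2 fold change changed sign in 4 genes, none of them called. ELK4 was at -0.03 after quantile normalization, -0.022 with GC correction, with and without the block, and -0.031 to 0.063 without 1 library (-0.0023 without FUSO 2). ELK1 ranged from -0.26 to 0.51 (-0.25 without FUSO 2), ELK3 from -0.80 to 0.20 and EHF from -0.0062 to 0.21 without 1 library. The cause was not tested. Absolute depth is unknown, so no counting error can be given.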

Other observations

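ETS1 was 1 of 7 genes among the 11088 tested (0.0631%) with a level in FUSO 1 more than 1 unit on the log2(FPKM + 1) scale above each of the other 3 libraries, a count made after the ETS1 values were seen. ELF1 came close to this pattern, at 11.01 FPKM in FUSO 1 and 5.854 FPKM in FUSO 2. In the Control libraries the same 2 genes were lower in Control 1 than in Control 2, by 1.70-fold for ETS1 and 1.68-fold for ELF1 in FPKM. On log2(FPKM + 1) the differences were -0.57 and -0.59, wider than in 97.4% and 97.5% of the genes tested. ELK1 had a gap of similar size in both groups, 1.82-fold between the Control and 1.77-fold between the FUSO libraries, with replicate 2 the higher in each.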
